A study of Rattus norvegicus with 3 samples.

Results

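The genes of protein synthesis described here are the translation factors and the aminoacyl-tRNA synthetases measured in reperfused rat kidneys. They were chosen by name alone: every gene with a single symbol in the array's annotation that begins with Eif or Eef and a digit, or that is built like Aars1 or Yars2, with Eif2ak2 left out. This gave 89 of 14218 genes, read by 136 probe sets, and for each gene the brightest probe set, judged by its mean across the arrays, stands for the gene. The name pattern uses no expression value, but the choice was made with earlier results of these data known. Probe sets that carry several symbols, among them those of Eif3e, Eif5 and Mars2, fall outside it.

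The donors were male Wistar rats of 370 to 508 g, whose kidneys went through 20 min of warm ischaemia and 17 ± 0.7 h in cold University of Wisconsin solution, before they were joined to the femoral artery of a living recipient for 5 h 43 min ± 21 min. Whether these errors are standard deviations is not stated. Infusions differed between the groups of 7 recipients: saline at 1 ml/h in the control group, heparin at 100 U/ml/h, or peptide 2 at 0.5 mg/ml, which is modelled on the heparin-binding stretch of the chemokine CCL5. The labels mention a bolus in one place and an infusion in another. All groups therefore share the ischaemia, the cold storage and the reperfusion, and no kidney without them was analysed here. Each group is 1 Affymetrix array of RNA pooled from 3 kidneys, so no spread between replicates exists, no test was made, and every difference below is between single pools.

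Translation starts when initiation factors bring the initiator tRNA, the small ribosomal subunit and the capped mRNA together, and it continues with elongation factors that deliver charged tRNAs and move the ribosome. Aminoacyl-tRNA synthetases charge each tRNA with its amino acid, with separate sets of enzymes for the cytosol and the mitochondrion. When cells are stressed, kinases phosphorylate eIF2, its exchange factor eIF2B is blocked, general initiation slows and the transcription factor ATF4 is made, which is known to induce many cytosolic synthetase genes. Ischaemia and reperfusion are known to slow protein synthesis in the kidney.

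The deposited values are log2 expression values. A gene counts as measured where its value reaches the array-wide median on each of the arrays compared, and 84 of the 89 genes did so on every array. The other 5 were Eef1a2, the muscle and neuron form of the elongation factor eEF1A, which lay at the lowest value of every array, Eef2k, the kinase that inactivates eEF2, and the mitochondrial synthetases Cars2, Ears2 and Vars2. Of 8 kidney markers 7 were found, and all 7 reached the median on each array, with values from 9.82 to 15.02. Arrays were alike in their medians (4.14 to 4.16). For beta-actin, the 3' control probe set exceeded the 5' one by 2.95 in heparin, 2.33 in control and 2.34 in peptide, on the log2 scale. The same gap did not widen in heparin for Gapdh (0.319 in heparin, 0.359 in control, 0.367 in peptide) or hexokinase (2.18, 2.18 and 2.28). Identical values on different arrays are common in these files: 15 of the 84 measured genes read exactly the same on all 3. A difference of 0 may come from the authors' summarisation and does not show equal abundance.

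Few translation genes passed 1.5-fold between the pools, and counts this small do not set them apart from all measured genes. In heparin against control, 1 of 84 measured genes was at least 1.5-fold higher, where the share over all 9236 measured genes was 3.04%, and 2 were at least 1.5-fold lower, where that share was 3.37%. None reached 2-fold in either direction, against 1.06% higher and 0.747% lower over all genes. In peptide against control 0 of 84 were 1.5-fold higher and 0 were 1.5-fold lower, beside 2.11% and 0.917% of 9268 genes, and 0 reached 2-fold, beside 0.723% higher and 0.119% lower. Between heparin and peptide 0 were 1.5-fold higher in heparin and 2 were lower, beside 1.62% and 4.57% of 9240 genes, and 0 reached 2-fold, beside 0.281% and 0.844%. With the brightest probe set, each share of the translation genes lay below that of all genes on these 3 arrays. With the mean of probe sets this turned for genes at least 1.5-fold lower in heparin than in control (3 of 84, beside 3.29% of all genes). It also turned for them with the second-ranked probe set (4 of 75, beside 4.71%). For genes lower in heparin than in peptide it turned without a filter (3 of 89, beside 3.21% of all genes). For genes lower in peptide than in control it turned with the second-ranked probe set (1 of 75, beside 96 of 7997 genes). A gene with 1 probe set keeps it in that setting, so only 25 of the 75 values come from a second-ranked one.

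The median sizes of the differences were close to those of all genes. The median size was 0.09 in heparin against control (0.08 over all genes), 0.03 in peptide against control (0.03) and 0.08 between the treatments (0.08), all on the log2 scale. The upper tail was shorter than that of all genes: 90% of the translation genes differed by no more than 0.34, 0.25 and 0.37, whereas for all genes these limits were 0.47, 0.31 and 0.47. Signed medians were -0.0027, 0.00 and 0.00, beside 0.00, 0.00 and 0.00 over all genes. Directions of small differences depended on the scaling. In heparin against control 24 genes were higher, 42 lower and 18 identical, where 25.8% and 44.2% of all genes were higher and lower. The split became 45 higher and 39 lower after quantile normalization, and 49 higher and 35 lower once each array's median over measured genes was subtracted. The median over all genes rose as well, to 0.032 and 0.040, beside 0.015 and 0.037 for the translation genes. In peptide against control 19 were higher and 34 lower, beside 32% and 28.5% of all genes, and quantile normalization gave 23 and 61. Heparin against peptide had 28 higher and 37 lower, beside 26.8% and 43.7% of all genes, and the same normalization gave 54 and 29. Medians over all genes were then -0.008 in peptide against control and 0.044 between the treatments, beside -0.020 and 0.042 for the translation genes. Shares of all genes higher or lower by any amount are those of the deposited scale, here and below. Rescaled splits cannot be set against them.

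**Figure D1:**
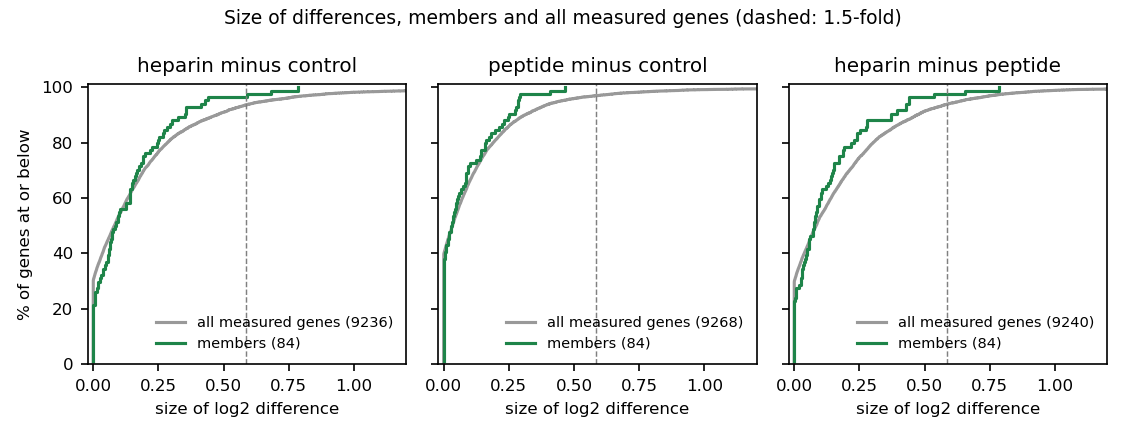
Cumulative share of genes (percent, vertical axis) by the size of the log2 difference (horizontal axis) in each comparison, for the 84 measured translation genes (green) and all measured genes (grey); the dashed line marks 1.5-fold. In heparin against control 90% of the translation genes lie at or below 0.34, and 90% of all genes at or below 0.47.

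With the brightest probe set and the deposited scale, the tRNA synthetases held every gene that passed 1.5-fold. Of 17 cytosolic enzymes, all measured, 1 was at least 1.5-fold higher in heparin than in control and 1 was at least 1.5-fold lower. Of 13 mitochondrial enzymes 10 were measured, and 1 was at least 1.5-fold lower. Among the 57 measured translation factors, 0 passed this size in any comparison, beside the shares of all genes given above (3.04% higher and 3.37% lower in heparin against control). This count depends on leaving out the eIF2 kinase Eif2ak2, which was 0.69 higher in heparin than in control, past 1.5-fold. With the mean of probe sets 1 gene of start site selection was at least 1.5-fold lower in heparin than in control, and after subtracting array medians 1 elongation factor was at least 1.5-fold higher in heparin than in peptide. On second-ranked probe sets Eif1a, Eif3a and Eif4g1 were at least 1.5-fold lower in heparin than in control, and Eif4e3 was at least 1.5-fold higher.

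Wars1, the cytosolic tryptophanyl-tRNA synthetase, is known as the synthetase that interferon gamma induces. Its value was 9.05 in control, 9.73 in heparin and 9.34 in peptide. It was lowest in the control pool and highest in the heparin pool, 1.60-fold above control in heparin (a log2 difference of 0.68) and 1.22-fold in peptide (0.29). The other probe set of Wars1, close to the array median, read 4.42 on all 3 arrays, and the mean over both probe sets differed by 0.34, which is under 1.5-fold. Eif2ak2, the interferon-induced kinase of eIF2 that the choice by name left out, read 9.94 in control, 10.63 in heparin and 10.38 in peptide, the same order. Leukocyte markers moved with Wars1 only in part. Cd68 differed by 0.48 and Lyz2 by 0.49 in heparin against control. In peptide against control Cd68 differed by -0.08 and Lyz2 by 0.04, beside 0.29 for Wars1. The pan-leukocyte gene Ptprc read 9.49 and the T cell gene Cd3e 4.76 on all 3 arrays, and the B cell gene Cd79b lay at the lowest value. The log2 of the summed level of these 5 markers was 13.57 in control, 14.04 in heparin and 13.60 in peptide. Most of this sum is Lyz2, at 13.46, 13.95 and 13.50. Red cell and platelet markers were lower in heparin than in control, with log2 differences of -0.24 for Hbb, -1.13 for Alas2, -0.76 for Pf4 and -0.94 for Itga2b. They were also lower in peptide than in control, by -0.06, -0.34, -0.90 and -0.20 in the same order. The part of these cells in the Wars1 value, and in the lower values in heparin below, was not tested, and in pooled tissue more cells of a type and more RNA per cell cannot be told apart.

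The 250 bases before the annotated start of Wars1 (RefSeq, GRCr8, chr6:133571646-133571895, minus strand) are shown because it is the translation gene with the largest positive difference. They were searched on both strands, with 50 bases more after the start, for the core of the interferon-stimulated response element, which is GAAA, any 2 bases and GAAA, and for the core of the element that ATF4 binds with C/EBP proteins, TGATGNAA. Neither set of letters is in this window, so nothing in it is in capitals.
Wars1: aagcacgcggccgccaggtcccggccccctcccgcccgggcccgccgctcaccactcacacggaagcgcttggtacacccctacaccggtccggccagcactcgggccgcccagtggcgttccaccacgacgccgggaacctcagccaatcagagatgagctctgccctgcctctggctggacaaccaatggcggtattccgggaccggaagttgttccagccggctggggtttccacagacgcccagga

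Hars1, the cytosolic histidyl-tRNA synthetase, was the gene with the largest difference in the other direction. It read 9.59 in control, 8.81 in heparin and 9.59 in peptide, so only the heparin pool stood apart, 1.73-fold lower than both others. Its other probe set read 7.90, 7.46 and 7.69, lower in heparin by 0.44 on the log2 scale. The mean over both probe sets differed from control by -0.62 in heparin. Hars2, the mitochondrial histidyl-tRNA synthetase, lies head to head with Hars1: their promoter windows overlap on opposite strands, the only such pair in which both genes belong to this group. Hars2 read 6.54 in control and 6.38 in both treated pools, a difference of -0.16. In all, 21 of the 82 genes with a RefSeq promoter window overlapped a window on the opposite strand (25.6%), beside 12.9% of the 11701 genes of the array with a window.

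Iars1, the cytosolic isoleucyl-tRNA synthetase, was lower in both treated pools by nearly the same amount, with 9.82 in control, 9.41 in heparin and 9.42 in peptide. Kars1, the lysyl-tRNA synthetase that serves both cytosol and mitochondrion, was higher in both, with 9.77, 10.10 and 10.06, while its other probe set read 4.43 on all 3 arrays. Rars1, the arginyl enzyme, was higher in heparin only: 10.26 in control, 10.54 in heparin and 10.27 in peptide. Qars1, the glutaminyl enzyme, was higher in peptide only, at 9.71, 9.70 and 9.98. Both treatments were set against the same control pool, so a high or low control value enters both differences, and Iars1 and Kars1 differed between heparin and peptide by -0.01 and 0.04. Cars1, Sars1, Tars3 and Vars1 were identical on all 3 arrays with their brightest probe sets. The class median was 0.00 in heparin against control, with 7 higher, 6 lower and 4 identical, and 0.00 in peptide against control, with 4 higher, 7 lower and 6 identical. Over all genes 25.8% were higher and 44.2% lower with heparin, and 32% and 28.5% with peptide.

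**Figure D2:**
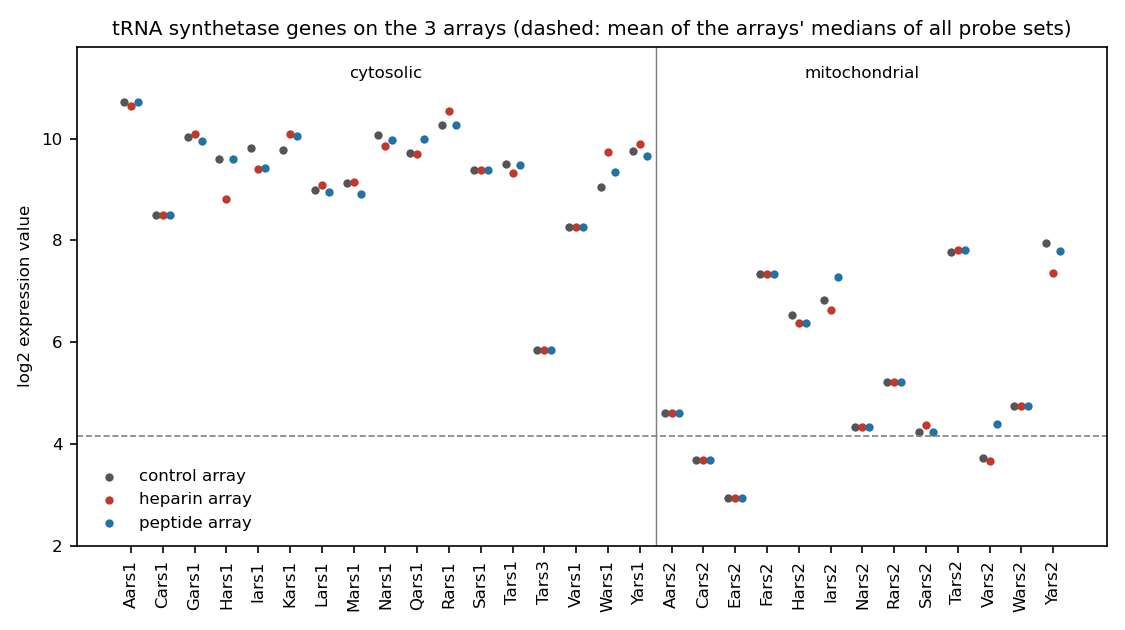
Log2 expression value (vertical axis) of each tRNA synthetase gene (horizontal axis) on the control, heparin and peptide arrays, 1 point per array, with cytosolic genes left and mitochondrial genes right; levels of different genes come from different probe sets and are not comparable. Wars1 is highest on the heparin array (9.73), Hars1 is lowest there (8.81), and Iars2 is highest on the peptide array (7.29).

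Among the mitochondrial enzymes, Yars2, the tyrosyl-tRNA synthetase, was 1.51-fold lower in heparin than in control, with 7.96 in control, 7.37 in heparin and 7.79 in peptide. Its log2 difference of -0.59 lay at the edge of 1.5-fold and became -0.53 after quantile normalization, -0.55 after subtracting array medians and -0.51 after adding 32 to the unlogged values. Iars2, the isoleucyl enzyme, read 6.82 in control, 6.63 in heparin and 7.29 in peptide. It was the highest of the 84 genes in peptide against control (0.46, 1.38-fold) and was lower in heparin than in peptide by 0.65. Vars2, the valyl enzyme, was below the array median in control (3.72) and heparin (3.66) and just above it in peptide (4.38), so no fold is given. Fars2, Aars2, Nars2, Rars2 and Wars2 were identical on all 3 arrays. The class median was 0.00 in all 3 comparisons.

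A promoter feature that the choice by name did not use was present in some of the cytosolic synthetase genes. TGATGNAA, the ATF4 element core, was present on either strand in the 300-base window (250 before and 50 after the start) of 7 of 15 cytosolic synthetase genes that have one, and in 0 of 13 mitochondrial ones. It was present in 8 of all 82 translation genes with a window, the remaining one being Eif2s2, the beta subunit of eIF2. Over all 11701 genes of the array with a window the share was 2.39%, and over all 27457 genes 4.16%. The interferon response core was present in 4 of the 82 genes (4.88%), Eif2a, Eif2s3, Eif3k and Eif6, against 3.21% of genes of the array, and in 0 of the cytosolic synthetases. The 7 genes without an entry were Eef1d, Eif3h, Eif4b, Eif4e3, Eif4ebp1, Gars1 and Rars1. A match is a description of letters, not a bound site.

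Of the 8 genes with a match, the following are shown as 30-base stretches with the element in capitals, because it was found in cytosolic and not in mitochondrial synthetase windows. All run in the direction of the gene, and TTGCATCA is the same element read on the other strand (RefSeq, GRCr8).
Cars1 (chr1:208225334-208225363, minus strand): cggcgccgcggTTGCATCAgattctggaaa
Iars1 (chr17:15193658-15193687, minus strand): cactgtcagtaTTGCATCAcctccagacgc
Mars1 (chr7:65023752-65023781, minus strand): gcccgttccggTTGCATCAgcgtgggctcc
Tars1 (chr2:62114811-62114840, minus strand): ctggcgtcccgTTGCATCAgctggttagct
Eif2s2 (chr3:163855588-163855617, minus strand): ttccctttcgcTGATGCAAgagcctagcgc
The element begins 24 bases before the annotated start in Iars1, 17 before it in Mars1, 27 before it in Tars1 and 36 before it in Eif2s2, and at base 18 after it in Cars1. Nars1 and Yars1 hold the element too.

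Synthetases with and without the element can be set side by side, without a test. In heparin against control the 7 synthetases with it had a median of -0.06, from Iars1 (-0.42) to Yars1 (0.14), with 2 higher, 4 lower and 1 identical. The 8 without it had a median of 0.00, from Hars1 (-0.79) to Wars1 (0.68). Over all genes 25.8% were higher and 44.2% lower. In peptide against control 0 of the 7 were higher, 5 were lower and 2 identical, with a median of -0.09, beside 32% higher and 28.5% lower over all genes. Of the 8 without the element, 3 were higher, 1 lower and 4 identical in that comparison, with a median of 0.00. Nars1, the asparaginyl enzyme, read 10.06 in control, 9.86 in heparin and 9.97 in peptide. Mars1, the methionyl enzyme, read 9.13, 9.15 and 8.91. Tars1, the threonyl enzyme, read 9.50, 9.33 and 9.48. Yars1, the tyrosyl enzyme, read 9.75, 9.89 and 9.66. All of these differences were under 1.5-fold.

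Of the eIF2 kinases, 2 were lower in the heparin pool than in control, 1 was identical, and Eif2ak2, outside the choice by name, was 0.69 higher. Eif2ak3, which encodes PERK, the kinase that responds to unfolded proteins in the endoplasmic reticulum, read 7.57 in control, 7.14 in heparin and 7.57 in peptide. Eif2ak1, the kinase that responds to lack of haem, read 8.29, 8.02 and 8.46, and its other measured probe set gave -0.25 beside -0.27 in heparin against control. Eif2ak4, the kinase GCN2 that senses uncharged tRNA, was identical on all 3 arrays (6.85). Of all genes 44.2% were lower in this comparison. For the 3 kinases within the choice by name the median in heparin against control was -0.27, and 2 of 3 were still lower after quantile normalization (-0.21) and after subtracting array medians (-0.23). None of the differences of these 3 genes reached 1.5-fold.

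Of the 5 subunits of eIF2B, which recharges eIF2 with GTP, Eif2b1 and Eif2b3 were lower in both treated pools. Eif2b3 read 7.37 in control, 7.01 in heparin and 7.09 in peptide, and Eif2b1 read 8.83, 8.53 and 8.58. Eif2b2 differed by -0.07 in heparin, and Eif2b4 and the catalytic subunit Eif2b5 were identical on all 3 arrays with their brightest probe sets. The other probe set of Eif2b5 read 5.03 in control, 4.86 in heparin and 5.03 in peptide. The eIF2 subunits themselves differed less: Eif2s1, whose protein carries the phosphorylated serine, read 10.81, 10.71 and 10.79, and Eif2s2 read 11.75, 11.73 and 11.70. Eif2s3y, the Y-linked gamma subunit, read 10.59, 10.36 and 10.45, and its probes may also read the near-identical Eif2s3 (9.07, 9.01 and 9.07). Eif2a, a separate factor that can deliver the initiator tRNA without eIF2, read 9.22, 8.87 and 8.98. In the class of start site selection and tRNA delivery 8 of 11 genes were lower in heparin, 1 higher and 2 identical, with a median of -0.09. Over all genes 44.2% were lower and 25.8% higher. After quantile normalization 8 were lower and 3 higher, and after subtracting array medians 7 and 4.

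No cap-binding factor or inhibitor reached 1.5-fold with its brightest probe set. Eif4e, the cap-binding protein, read 10.93 in control, 10.79 in heparin and 10.91 in peptide, and the helicase Eif4a1 read 12.43, 12.24 and 12.34. Eif4e3, a relative of eIF4E with weaker cap binding, was the member of this class with the largest difference: 6.61 in control, 7.05 in heparin and 6.61 in peptide, with its other measured probe set higher by 0.61 in heparin. The scaffold Eif4g1 read 9.68, 9.54 and 9.91 on its leading probe set, lowest in heparin and highest in peptide. Its other measured probe sets were not higher in peptide than in control, with differences of -0.15, 0 and -0.21. Of 11 genes 8 were lower in heparin than in control, 2 higher and 1 identical (median -0.06), beside 44.2% of all genes lower. This split became 6 lower and 5 higher when array medians were subtracted. The mean of probe sets gave 9 lower and 2 higher (median -0.15). With the second-ranked probe set 7 of 9 were lower (median -0.18). In that setting genes with 1 probe set keep it, and this median is the value of Eif4a1, which has only 1. Eif4ebp1, the eIF4E-binding inhibitor controlled by mTORC1, read 7.00, 7.01 and 7.01. Eif4ebp2, its relative, read 8.78 in control and 9.07 in both treated pools.

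Among these genes are 11 subunits of eIF3, the scaffold on the small ribosomal subunit. Their brightest probe sets lay between -0.22 and 0.25 in heparin against control, with 4 higher, 5 lower and 2 identical, beside 25.8% higher and 44.2% lower over all genes. Second-ranked probe sets went further, to -0.80 in Eif3a. The highest was Eif3f (11.15 in control, 11.39 in heparin, 11.21 in peptide) and the lowest Eif3j, a loosely bound subunit (10.43, 10.21 and 10.29). In peptide against control 7 were lower, 2 higher and 2 identical, with a median of -0.09, beside 28.5% lower and 32% higher over all genes. Either scaling gave 9 lower and 2 higher. Subtracting array medians moves every gene by the same -0.018, so a gene with identical values then counts as lower. Eif6, which keeps the ribosomal subunits apart, read 10.94, 10.67 and 11.05, and was lower in heparin than in peptide by 0.37. Eif5a, the factor that carries hypusine and helps ribosomes past difficult stretches, read 11.72, 11.62 and 11.72.

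Elongation factors held the largest positive difference between heparin and peptide. Eef1g, a subunit of the complex that reloads eEF1A with GTP, read 12.04 in control, 12.29 in heparin and 11.76 in peptide, so heparin lay above and peptide below control, 0.54 apart. This was the value closest to 1.5-fold on the higher side, and of the alternatives tried only the subtraction of array medians took it past (0.60). The other probe set of Eef1g read 5.20, 5.21 and 5.20, with a difference of 0.01 between the treatments. Its partner Eef1d read 10.67, 10.74 and 10.46 in the same order, and Eef1b2 read 12.96, 13.03 and 12.88, also in that order. Eef1e1, a small protein of the multi-synthetase complex, read 9.60, 9.24 and 9.41. The abundant factors that carry tRNA and move the ribosome hardly differed: Eef1a1 read 15.37, 15.36 and 15.37, close to the top of the scale where differences may be compressed, and Eef2 read 12.82, 12.82 and 12.84. The 3 measured methyltransferases of eEF1A, Eef1akmt1, Eef1akmt2 and Eef1akmt4, lay between -0.09 and 0.15 in heparin against control.

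**Figure D3:**
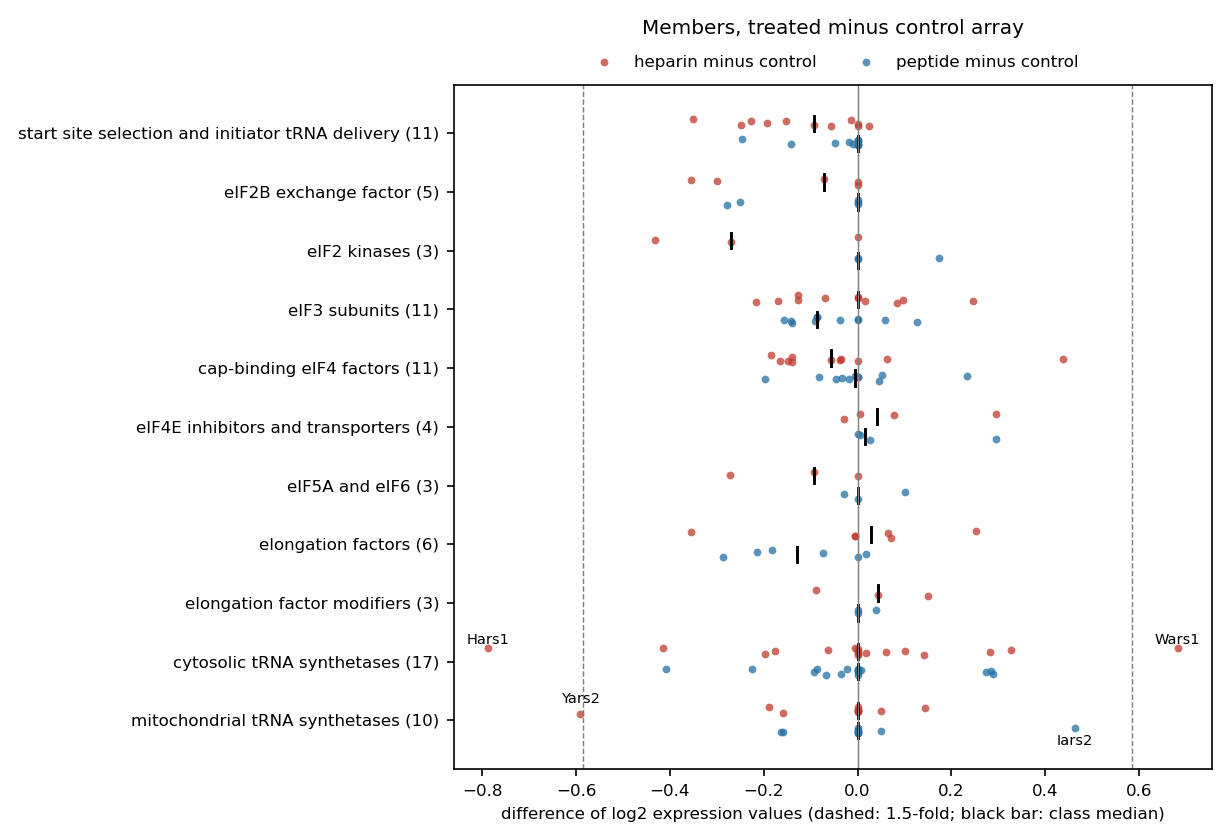
Log2 difference from the control array (horizontal axis) of each of the 84 measured genes, by class (vertical axis, number of genes in brackets), for heparin (red, upper row of a class) and peptide (blue, lower row); black bars are class medians and dashed lines mark 1.5-fold. Wars1 (0.68), Hars1 (-0.79) and Yars2 (-0.59) lie outside the dashed lines in heparin, and 0 genes do in peptide.

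Dimmer probe sets of the same genes gave other values than the leading ones. Of the 36 genes with several probe sets, 25 had the second-ranked one measured in heparin against control. In these, 15 were lower in heparin, 6 higher and 4 identical, with a median of -0.24, while the leading probe sets of the same 25 genes had a median of 0.00. Over all genes the second-ranked probe sets had a median of -0.01, and 51.5% of 2221 were lower, near the 60% of these 25. At least 1.5-fold lower were 3 of the 25, beside 8.01% of all second-ranked probe sets, and 2 were at least 2-fold lower, beside 1.98%. The median of the 25 stayed below 0 after quantile normalization (-0.20) and after subtracting array medians (-0.20). In 17 of the 25 genes the second-ranked probe set gave a lower difference than the leading one, as it did in 55.1% of 2220 genes overall. At least 1.5-fold higher was 1 of the 25, Eif4e3, beside 1.98%. With peptide, 12 of 25 second-ranked probe sets were lower than in control, beside 32.7% of 2236, with 0 at least 1.5-fold higher (1.57%), 1 at least 1.5-fold lower (1.83%) and 0 at least 2-fold lower (0.134%). Between heparin and peptide 15 of 25 were lower in heparin, beside 49.5% of 2218, with 0 at least 1.5-fold higher (1.04%), 2 at least 1.5-fold lower (6.99%) and 1 at least 2-fold lower (1.53%).

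Single genes show how far apart the probe sets of 1 gene were. Eif1a, which helps the ribosome find the start codon, read 10.66, 10.41 and 10.65 in control, heparin and peptide on its leading probe set and 10.14, 8.91 and 9.47 on the second, a log2 difference of -1.23 in heparin. Its other probe sets differed by -0.54 and -0.66 in heparin and by -0.54 and -0.56 in peptide, so all 4 were lower in heparin by unequal amounts. Some of them may also read Eif1ax, a near-identical gene, which gave -0.19 in heparin. Eif4g1 gave -0.14 on its leading probe set and -1.24 on the second (7.81 in control, 6.57 in heparin, 7.66 in peptide), with -0.14 and -0.52 on the others. Eif3a, the largest eIF3 subunit, gave -0.13 and -0.80, Eif3j -0.22 and -0.56, and Eif3c -0.17 and -0.50. Signs were opposite in Eif3l (0.10 and -0.45) and in Gars1, the glycyl-tRNA synthetase (0.06 and -0.48). In heparin against control 5 genes had measured probe sets of opposite sign, Eef1a1, Eif3l, Eif4g2, Gars1 and Mars1. In peptide against control 2 did, Eif4g1 and Eif4h, and between heparin and peptide 7 did. The 3' to 5' gap was wider on the heparin array for beta-actin (2.95 against 2.33 in control) and not for Gapdh (0.319 against 0.359) or hexokinase (2.18 in both), and the part of RNA quality in these values was not tested.

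**Figure D4:**
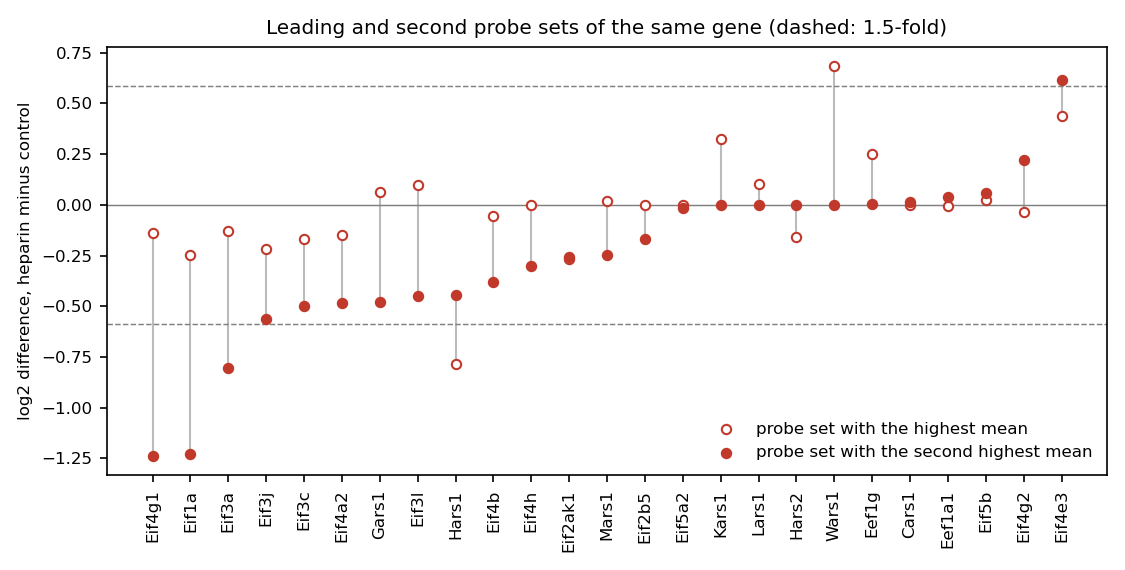
Log2 difference of heparin minus control (vertical axis) for the probe set with the highest mean (open) and the second highest (filled) of each of 25 genes (horizontal axis, ordered by the filled value); dashed lines mark 1.5-fold. Filled points of Eif4g1 (-1.24), Eif1a (-1.23) and Eif3a (-0.80) lie below the lower dashed line, and Eif4e3 (0.61) above the upper one.

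Genes around the translation factors were read from 6 lists, each gene by its brightest probe set. The integrated stress response list, 13 genes and all measured, had the widest range of the 6 in heparin against control (-0.74 to 0.69), and the mTORC1 and MNK list the widest in peptide against control (-0.47 to 0.70). In heparin against control 5 of the 13 stress response genes were higher, 7 lower and 1 identical, with a median of -0.15. In it 1 was at least 1.5-fold higher (Eif2ak2) and 1 at least 1.5-fold lower (Trib3), beside 3.04% and 3.37% of all genes. After adding 32, and with the mean of probe sets, 0 of 13 were at least 1.5-fold lower, beside 2.17% and 3.29%. With the second-ranked probe set 0 of 11 were, beside 4.71%. The median was then 0, with 5 higher, 4 lower and 2 identical. Atf4, the transcription factor at the centre of the response, read 12.56 in control, 12.21 in heparin and 12.58 in peptide. Its target Trib3, a pseudokinase, read 7.01, 6.27 and 6.93. Asns, the asparagine synthetase and another ATF4 target, went the other way, at 7.89, 8.12 and 7.98. Ppp1r15a, the phosphatase subunit GADD34 that reverses eIF2 phosphorylation, read 10.24, 9.89 and 10.32. With peptide, 10 of 13 were higher than in control and 2 lower, beside 32% and 28.5% of all genes, with a median of 0.09, and 10 were still higher under both scalings. Cebpb, a partner of ATF4 on DNA and an inflammatory transcription factor, read 10.92, 10.54 and 11.57, 1.03 lower in heparin than in peptide.

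**Figure D5:**
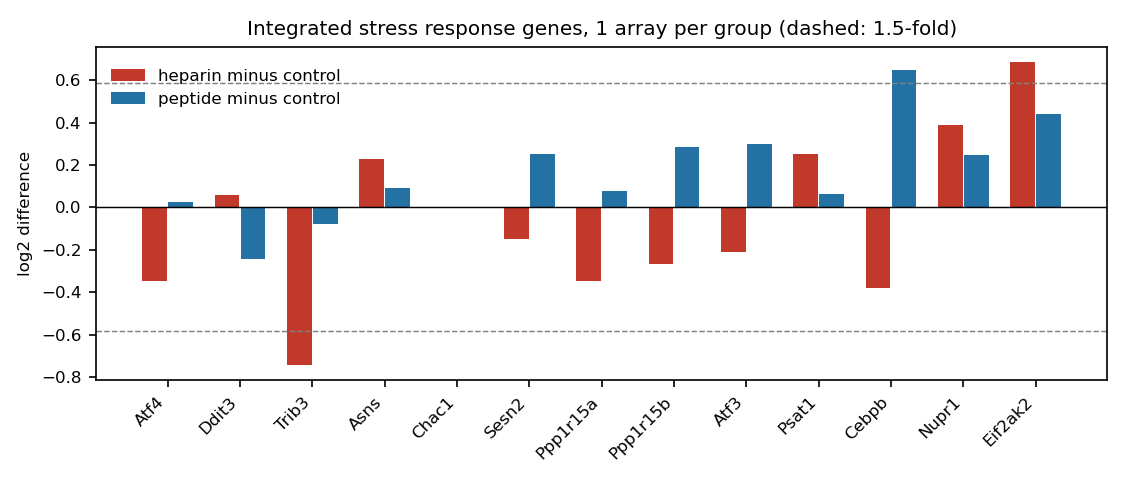
Log2 difference from the control array (vertical axis, bars from 0) of the 13 integrated stress response genes (horizontal axis) in heparin (red) and peptide (blue), 1 array per group; dashed lines mark 1.5-fold. Trib3 (-0.74) is the lowest and Eif2ak2 (0.69) the highest with heparin, and Cebpb (0.65) the highest with peptide.

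Of 10 mitochondrial translation factors 6 were measured, and 5 were lower in heparin than in control with 1 identical (median -0.15, and -0.09 after quantile normalization). Of all genes 44.2% were lower in this comparison. The elongation factor Tsfm read 7.29, 6.77 and 7.40, and Gfm1, which moves the mitochondrial ribosome, 7.54, 7.36 and 7.81. In both, as in Iars2, heparin was lowest and peptide highest. The other measured factors of the list did not share this order. Mtif2 was lowest in peptide (8.45, 8.34 and 8.19), Tufm was highest in control (10.20, 10.03 and 10.08), and Mtrf1l and Mrrf read the same in control and peptide. Release and recycling factors (6 of 8 measured) lay between -0.19 and 0.22 in heparin against control. The other synthetases and their scaffold (8 of 9) had a median of 0.00, with Gatc, of the mitochondrial glutaminyl-tRNA pathway, at -0.46. Poly(A)-binding and cap-associated factors (11 of 12) had a median of -0.0042, with the cap-binding subunit Ncbp2 at -0.45 in heparin and -0.35 in peptide. In the mTORC1 and MNK list (13 of 14) the median was -0.07. There Akt1s1, the mTORC1 inhibitor PRAS40, read 7.31 in control and 6.97 in heparin, and was the list's only gene past 1.5-fold in peptide against control (0.70) and past 2-fold between heparin and peptide (-1.03). The first of these rests on its brightest probe set. With the mean of probe sets 0 of 13 were at least 1.5-fold higher in peptide than in control, beside 2.02% of all genes. With the second-ranked probe set 0 of 10 were, beside 2.28%.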

How the data were processed

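Biotin-labelled cRNA from 1 pool of 3 kidneys per group was hybridised to 1 Affymetrix rat array each, per the labels' protocols. The deposited log2 values per probe set were made by the authors with GCRMA, which the submitters' processing notes name without a version. The sources used here do not give the GCRMA options or how the arrays were scaled to each other. Values were used as deposited.

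Members were matched by symbol in the platform annotation, and all 89 had their gene ID in the RefSeq table of GRCr8 with the same symbol. Differences of log2 values, counts at 1.5-fold and 2-fold and medians were computed with Python 3.11.15, pandas 2.3.3 and numpy 2.4.6, and figures with matplotlib 3.10.9. The counting code was tested on simulated data. Precision is limited by having 1 array in each group.

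Named genes were, per comparison, up to 8 members with the largest positive and 8 with the largest negative difference beyond 0.25, plus a fixed set of central factors, members with discordant probe sets, and up to 3 genes per pathway list. The others are named as examples of their class, chosen after their values were seen. One promoter sequence is not reported here. Members, classes, lists and motifs were chosen with earlier results of these data known. The 8 alternatives tried changed the filter (40th percentile, 60th percentile, none), the scale (quantile normalization, array medians, an offset of 32) or the probe set (mean, second-ranked).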

Additional observations from a re-analysis of the deposited data

How the results depend on the processing

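No paired analysis was possible because each group is 1 array, and for the same reason no replicate could be left out. Of 72 counts and medians recomputed under the 8 alternatives, 60 kept their value within 1.5 times or, for medians, within 0.1. This limit is larger than the size of every reported median, so a median that changed its sign could still count as kept. The count of genes at least 1.5-fold lower in heparin than in control, 2 as reported, was 1 after quantile normalization, 1 after subtracting array medians, 1 after adding 32, and 4 with the second-ranked probe set. The count at least 1.5-fold higher, 1 as reported, was 0 with the mean of probe sets. In peptide against control the count higher, 0 as reported, was 1 when genes down to the 40th percentile were kept and 1 when no genes were filtered out, and the count lower was 1 with the second-ranked probe set. Between heparin and peptide the count lower, 2 as reported, was 1 after quantile normalization, 1 after adding 32 and 1 with the mean of probe sets, and the count higher, 0 as reported, was 1 after subtracting array medians. That count lower was 3 with the 40th percentile filter, with no filter and with the second-ranked probe set, within the limit of 1.5 times. The second-ranked probe sets add Eif1a, Eif3a and Eif4g1 in heparin against control and drop Hars1. Otherwise the cause was not tested. For single named genes, 444 of 477 recomputed differences stayed within 0.1, and 0 of the differences past 1.5-fold took the opposite sign. Much of this was fixed in advance. The filters leave a gene's difference unchanged, and a gene with 1 probe set keeps its value with the mean or the second-ranked probe set. With the second-ranked probe set 6 named differences of more than 0.25 in size became 0, among them that of Wars1 in heparin against control (0.68 as reported). With 1 array per group, no value here can be set against the variation between kidneys.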
